A study of Mus musculus with 15 samples.

Results

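The response of the thymus to the peptide gp33 was compared between the mouse strains NOD.LCMV and NOD.Ln82-LCMV. For each gene, the difference between gp33 and control peptide in NOD.Ln82-LCMV was subtracted from the same difference in NOD.LCMV. This strain by peptide interaction used 15 of the 15 arrays of the series and was tested for 19938 genes. A positive value is called higher and means that gp33 moved the gene further upward in NOD.LCMV. A negative value is called lower. Values are log2 signal, and differences carry their standard error.

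All mice were females of 5 weeks, and each received 0.5 µg of peptide into a vein 2 h before the whole thymus was taken. The groups were NOD.LCMV with the control peptide (n = 3), NOD.LCMV with gp33 (n = 3), NOD.Ln82-LCMV with the control peptide (n = 4) and NOD.Ln82-LCMV with gp33 (n = 5). The control peptide binds the class I molecule Db and is named Db here as in the labels. Both strain names carry the LCMV designation, which the labels do not explain, and they do not describe the Ln82 segment either. No processing batch is labelled, and batch and strain cannot be told apart if the strains were processed separately. The labels call the mice of a group biological replicates, and p-values measure the spread between these mice.

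Developing T cells that bind a self peptide strongly through their antigen receptor are removed in the thymus, a process called negative selection. Receptor engagement activates the NF-κB, NFAT and MAP kinase pathways, which switch on immediate early genes of the Nr4a, Egr and AP-1 families within hours. The cell death gene Bcl2l11, cytokine genes and inhibitors that damp the signal follow, and activated T cells in turn act on dendritic cells and stroma through cytokines. Nfkbid encodes IκBNS, a nuclear IκB protein that modulates transcription of NF-κB target genes, and the series title names it for the locus Idd7. In whole tissue, fewer cells of a type and less RNA per cell cannot be told apart.

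Array medians lay between 7.59 and 7.67, and a list of 18 double-positive thymocyte genes averaged between 11.15 and 11.78 on every array. One array stood apart from its group, NOD.Ln82-LCMV Db replicate 1. Over the 2721 genes called between the control groups when it was left out, its median position was 0.49, on a scale where the other NOD.Ln82-LCMV controls average 0 and the NOD.LCMV controls 1. The other 8 NOD.Ln82-LCMV arrays, placed in the same way, lay between −0.14 and 0.14. The potassium channel gene Kcnma1 read 10.14, between the 11.54 to 12.51 of the other 3 and the 6.70 to 6.94 of the NOD.LCMV controls. The small RNA gene Snora23 stood at 10.73, with the 10.73 to 10.84 of its own strain. Those 2 genes were chosen after their values were seen. For the gene lists below, counts without this array are given where they moved.

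The interaction was called for 1740 of 19938 genes (8.73%) at an adjusted p under 0.05 in limma. It was higher for 890 genes (4.46%) and lower for 850 (4.26%). Every list count below is to be read beside these shares, and no list was tested against them. Large differences ran almost entirely one way, since 163 of the higher genes (0.818% of all) but only 5 of the lower ones (0.0251%) reached 2-fold. The median over all genes was −0.04 log2. The balance between directions depended on scaling: 51.1% of the calls were higher as deposited and 65.5% (992 of 1515) after every array was centred on its median. Array weights gave 3175 calls, 40.1% of them higher. Without NOD.Ln82-LCMV Db replicate 1 there were 1954 calls, and 1605 of the 1740 remained. The range with any 1 array left out was 1207 to 1954 in all and 472 to 1016 for the lower genes. Lower calls moved by more than 1.5 times without NOD.LCMV gp33 replicate 2 (472), NOD.LCMV Db replicate 1 (562) or 2 (501), and NOD.Ln82-LCMV Db replicate 3 (562).

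Nearly all of these genes responded in NOD.LCMV, where the response itself was called for 1701 of the 1740, beside 19.8% of all genes. The interaction contains the NOD.LCMV response from the same arrays. This share, and the forms and strain differences of the 1740 genes below, are therefore in part fixed by the choice. In NOD.Ln82-LCMV, gp33 against Db passed for 1 of 19938 genes in limma, the activation marker Cd69 (0.00502%), whose call was lost in 7 of the 15 fits with 1 array left out, and 1190 genes had an unadjusted p under 0.05 (5.97%). The most frequent form was a shift of the same sign in both strains that was larger in NOD.LCMV, found for 1123 genes (64.5%). Opposite signs were found for 612 genes (35.2%), of which 60 had an unadjusted p under 0.05 in both strains. Without NOD.Ln82-LCMV Db replicate 1 the opposite-sign genes numbered 742 of 1954. A shift of the same sign but larger in NOD.Ln82-LCMV was found for 1 gene, and 4 genes had a shift of 0 there. The strain difference was called after gp33 and not with the control peptide for 1281 of the 1740 genes (73.6%). It was called at both peptides for 203 (11.7%) and with the control peptide only for 186 (10.7%). A difference that was not called may have been missed. Calls with Db over all genes rose from 2057 to 2721 without NOD.Ln82-LCMV Db replicate 1. Over all genes these strain differences were called for 27.0% after gp33 (10.2% higher in NOD.LCMV and 16.8% lower) and 10.3% with Db (4.77% higher and 5.54% lower).

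**Figure D1:**
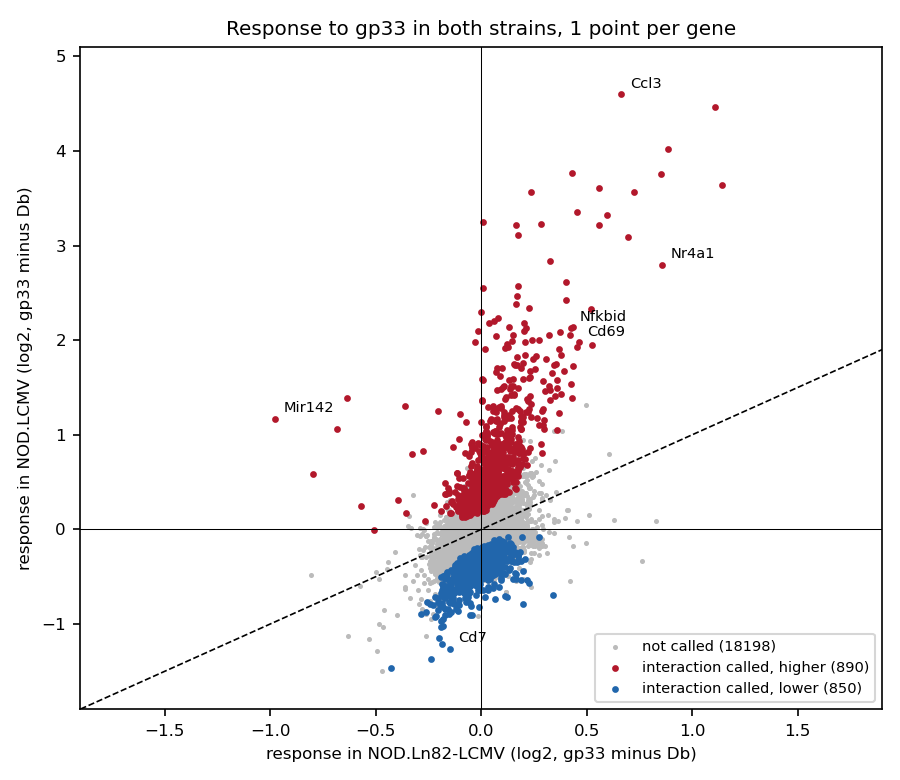
Response to gp33 (log2, gp33 minus Db) in NOD.Ln82-LCMV on the horizontal axis and in NOD.LCMV on the vertical axis, 1 point per gene, with equal responses on the dashed line. Higher genes (red, 890) climb steeply along the vertical axis while staying near 0 on the horizontal one, and lower genes (blue, 850) lie mostly below 0 for NOD.LCMV.

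Nfkbid (probe set 10551891) read 9.33, 9.27 and 9.40 with Db and 11.43, 11.53 and 11.44 with gp33 in NOD.LCMV. The NOD.Ln82-LCMV mice read 9.08, 9.06, 9.33 and 9.27 with Db and 9.73, 9.44, 9.37, 9.61 and 9.91 with gp33. Both strains thus showed gp33 mice above all of their controls, but every NOD.Ln82-LCMV mouse lay below every gp33-treated NOD.LCMV mouse. The interaction was 1.71 ± 0.15 log2, a 3.26-fold larger rise in NOD.LCMV (95% interval 2.63 to 4.05, limma adjusted p = 2.16e-06). The log2 shift in NOD.Ln82-LCMV, 0.43 ± 0.09, was 0.20 of that in NOD.LCMV. Without NOD.Ln82-LCMV Db replicate 1 the interaction was 1.74.

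All 10 measured NF-κB subunits and inhibitors, Nfkbid included, had a higher interaction, with a median of 1.17 log2 beside −0.04 over all genes. The count stayed at 10 with any 1 array left out. Relb, a subunit of the alternative pathway, read 8.33 to 8.40 with Db and 10.03 to 10.24 with gp33 in NOD.LCMV. Its NOD.Ln82-LCMV values were 8.17 to 8.44 and 8.55 to 8.83, giving an interaction of 1.39 ± 0.11 (limma adjusted p = 9.89e-07). Rel, the c-Rel subunit that lymphocytes induce on activation, gave 1.39 ± 0.11, and Nfkbia, the classical cytoplasmic inhibitor, gave 0.95 ± 0.08. Nfkb2 and Bcl3, a second subunit gene of the alternative pathway and another nuclear IκB gene, reached 1.46 ± 0.16 and 1.47 ± 0.16. Among the 7 members that rose at least 2-fold in NOD.LCMV, the NOD.Ln82-LCMV shift was between 0.165 and 0.235 of it on the log2 scale.

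The promoters of this set were searched for the NF-κB consensus, the motif that NF-κB dimers bind. In RefSeq promoter windows (GRCm38.p6), the 250 bases before a start site were searched on both strands, and overlapping matches were merged. A match was present in 7 of the set's 12 windows (58.3%), from 5 of the 8 genes with a window. Over all measured genes it was present in 828 of 19116 windows (4.33%). Windows of higher genes held it in 9.26%, those of lower genes in 3.80%, and those of higher genes of at least 2-fold in 17.0%. A match is a run of letters, binding was not measured, and the difference between these shares was not tested. The stretches below are shown because these genes gave the interaction just described. Capitals mark matches, and each reads 5′ to 3′ on the gene's strand:
Rel, chr11:23771031-23771081, minus strand: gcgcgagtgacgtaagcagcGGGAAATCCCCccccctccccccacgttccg
Nfkbia, chr12:55492648-55492696, minus strand: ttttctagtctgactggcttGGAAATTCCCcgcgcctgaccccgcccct
Nfkb2, chr19:46304678-46304736, plus strand: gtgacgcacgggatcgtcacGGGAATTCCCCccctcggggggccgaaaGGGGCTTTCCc
Nfkbid, chr7:30422170-30422199, plus strand: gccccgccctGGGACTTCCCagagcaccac
Nfkbid, chr7:30422215-30422244, plus strand: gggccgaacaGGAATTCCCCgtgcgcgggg
The Nfkbid matches begin 226 and 181 bases before the start site.

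Of 16 measured NF-κB targets, 12 were higher and none was lower, with a median of 0.77 log2. Tnfaip3, which encodes the NF-κB brake A20, read 9.89 to 9.94 and then 11.59 to 11.69 in NOD.LCMV. It read 9.95 to 10.08 and then 10.11 to 10.26 in NOD.Ln82-LCMV, so its interaction was 1.57 ± 0.07 (limma adjusted p = 2.47e-09). Tnip3, an A20-binding inhibitor, gave 1.98 ± 0.12, the adhesion gene Icam1 1.44 ± 0.09, and Birc3, an inhibitor of apoptosis, 1.09 ± 0.08. Upstream of NF-κB, 2 of 20 genes of proximal receptor signalling were higher and none lower, or 1 lower without NOD.Ln82-LCMV Db replicate 1. Over all genes 4.46% were higher and 4.26% lower, and the median of this list was −0.03 log2. The 2 higher genes were Malt1 (0.81 ± 0.09) and Bcl10 (0.69 ± 0.10), whose products form the complex that links the receptor to NF-κB. In NOD.Ln82-LCMV the shift of Malt1 was −0.01 ± 0.06 and that of Bcl10 −0.02 ± 0.06.

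The Nr4a genes encode orphan nuclear receptors that report receptor signal strength. Nr4a1, which encodes Nur77, read 10.41, 10.53 and 10.39 with Db and 13.02, 13.49 and 13.22 with gp33 in NOD.LCMV. Its NOD.Ln82-LCMV values were 10.29, 11.07, 11.21 and 11.25 with Db and 11.98, 11.73, 11.57, 11.72 and 12.07 with gp33. The first control, replicate 1, matched the NOD.LCMV controls, and the other 3 lay above them. The interaction was 1.94 ± 0.26 (limma adjusted p = 0.000183), and 2.16 without that array. Nr4a3 gave 3.13 ± 0.31, or 3.39 without replicate 1, which read 8.09 beside 9.02 to 9.23 in the other 3 controls. Nr4a2 gave 2.90 ± 0.21. Egr2, a zinc finger factor of selected thymocytes, gave 1.11 ± 0.16. Egr3 gave 0.52 ± 0.15, a call lost in 10 of the 15 fits that left out 1 array. In all, 5 of 9 Nr4a and Egr genes were higher and none lower, and 4 were higher without NOD.Ln82-LCMV Db replicate 1. The 4 members that rose at least 2-fold in NOD.LCMV had a median NOD.Ln82-LCMV share of 0.25, beside 0.11 over the 195 genes that rose so. Control replicate 1, low for Nr4a1 and Nr4a3, adds to their shift in NOD.Ln82-LCMV. The shares were not computed without it.

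AP-1 factors are dimers of Fos, Jun and related proteins. Of 12 measured, 10 were higher and none lower, with a median of 1.35 log2. Atf3, a stress-induced partner of Jun proteins, read 7.91, 7.85 and 7.86 with Db and 11.30, 11.65 and 11.37 with gp33 in NOD.LCMV. Its NOD.Ln82-LCMV values were 7.83, 7.92, 8.03 and 7.91 with Db and 8.36, 7.99, 8.12, 8.09 and 8.23 with gp33. The interaction of 3.33 ± 0.12 was a 10.1-fold larger rise (95% interval 8.42 to 12.0, limma adjusted p = 6.58e-10). Jun gave 1.80 ± 0.11, Fosl2 1.84 ± 0.14 and Junb 1.43 ± 0.11. Among the 8 AP-1 genes that rose at least 2-fold in NOD.LCMV, the median share in NOD.Ln82-LCMV was 0.07. Of 16 other immediate early genes, 10 were higher and none lower, or 9 higher without NOD.Ln82-LCMV Db replicate 1. They included Myc, a driver of cell growth (1.28 ± 0.09), and Zfp36, which destabilises cytokine mRNAs (0.81 ± 0.07).

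The serum response and matricellular list holds some of the largest interactions. Thbs1, which encodes the matrix protein thrombospondin 1, read 8.22, 8.30 and 8.36 and then 11.37, 11.78 and 11.48 in NOD.LCMV. Mice of NOD.Ln82-LCMV read 8.11, 8.25, 8.11 and 8.08 and then 8.37, 8.08, 8.21, 8.06 and 8.0, which overlap. Its interaction was 3.24 ± 0.13 (limma adjusted p = 1.03e-09), and its shift in NOD.Ln82-LCMV was 0.01 ± 0.08. Ccn1, a matrix-bound signalling protein gene, gave 3.05 ± 0.17, and F3, the gene of tissue factor, gave 2.15 ± 0.17. Plaur, the urokinase receptor gene, gave 1.37 ± 0.12. With the cytoskeletal gene Vcl (0.64 ± 0.08) and the growth factor gene Hbegf (0.81 ± 0.11), 6 of 12 members were higher and none lower.

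**Figure D2:**
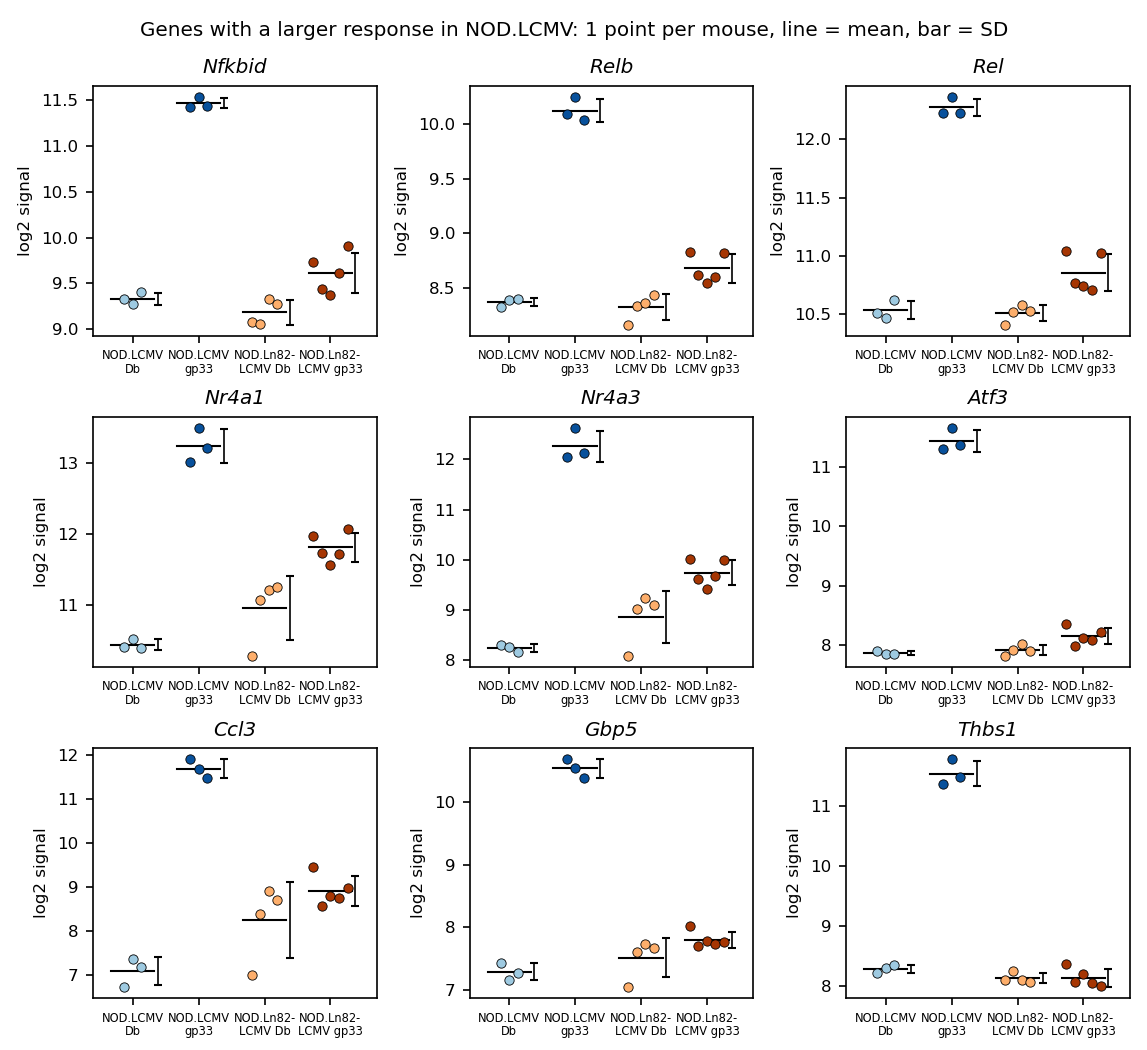
Log2 signal of 9 genes in each mouse by strain and peptide, with group means (lines) and SD (bars). In each panel the 3 gp33-treated NOD.LCMV mice lie above all other mice, and for Nr4a1, Nr4a3, Ccl3 and Gbp5 the first NOD.Ln82-LCMV control lies below the other 3.

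Transcription factors of effector T cells followed. Irf4, which grades effector programs by receptor signal, read 7.39 to 7.80 and then 11.08 to 11.29 in NOD.LCMV. It read 7.49 to 7.90 and then 8.05 to 8.54 in NOD.Ln82-LCMV without overlap, and its interaction was 3.05 ± 0.18. Irf1 gave 1.63 ± 0.06 on its brighter probe set and 0.58 on the other. Irf8, a factor of myeloid cells and activated T cells, gave 1.41 ± 0.12, and Irf2 gave 0.41 ± 0.06. Those were the 4 higher members of 8 interferon regulatory factors, of which 5 were higher without NOD.Ln82-LCMV Db replicate 1. Tbx21, which encodes T-bet, gave 2.95 ± 0.17 and Prdm1, which encodes Blimp-1, 1.02 ± 0.10. These head the 14 CD8 and CD4 fate factors, of which 4 were higher and 1 was lower. The others were weaker. Ikzf2 gave 0.56 ± 0.14 and lost its call without NOD.LCMV Db replicate 2 or gp33 replicate 2, with a lowest value of 0.44. The calls of Id2 (0.26 ± 0.07) and Runx1 (−0.28 ± 0.08) were lost in 11 and 10 of the 15 fits. In the NFAT and calcineurin list, 2 of 12 were higher and 1 was lower. Nfatc1, which receptor signals induce, gave 0.87 ± 0.13, and Nfatc2, which is present in resting T cells, gave −0.35 ± 0.06. The calcineurin inhibitor gene Rcan1 gave 0.27 ± 0.07, a call lost in 7 of the 15 fits.

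Activation receptors were higher for 12 of 23 genes and lower for none, or 13 and 1 without NOD.Ln82-LCMV Db replicate 1. Cd69, which keeps activated thymocytes in the organ, read 10.84, 11.02 and 10.97 and then 12.97, 12.80 and 12.99 in NOD.LCMV. In NOD.Ln82-LCMV it read 11.03, 10.95, 10.92 and 10.95 and then 11.54, 11.27, 11.38, 11.44 and 11.50. The peptide groups did not overlap in either strain, and its rise of 0.46 ± 0.06 in NOD.Ln82-LCMV passed the test (limma adjusted p = 0.0215). That call was lost in 7 of the 15 fits with 1 array left out, those without NOD.Ln82-LCMV Db replicate 2, 3 or 4 or gp33 replicate 1, 3, 4 or 5, in which the rise was 0.44 to 0.48. It was also lost with the replicate block (limma adjusted p = 0.132). That block takes gp33 replicate 5 out of the response, and its rise of 0.445 equals that of the fit without that array. With unlogged values the call was lost too (limma adjusted p = 0.763). The interaction was 1.51 ± 0.09. Tagap, which encodes a GTPase activator found in activated T cells, shifted by 1.14 ± 0.18 in NOD.Ln82-LCMV, which did not pass over all genes. Its interaction was 2.50 ± 0.28, and 2.73 without control replicate 1, which read 8.69 beside 9.59 to 9.66. Tnfrsf9, the costimulatory receptor 4-1BB, gave 2.40 ± 0.29, or 2.65 without that array. Tnfsf14, which encodes LIGHT, gave 1.78 ± 0.17. Slamf1 and Cd44, adhesion and costimulatory receptors named after their values were seen, gave 1.46 ± 0.25 and 1.21 ± 0.16. Slamf1 read 8.47 to 9.59 and then 8.55 to 8.79 in NOD.Ln82-LCMV, so gp33 mice lay within the range of the controls. Pdcd1, the gene of the inhibitory receptor PD-1, had the highest NOD.Ln82-LCMV share among the 195 genes that rose at least 2-fold in NOD.LCMV, 0.38, and its interaction of 0.82 ± 0.25 missed the threshold (limma adjusted p = 0.056).

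Cytokine and chemokine genes of T cells were higher for 9 of 16 and lower for none. Ccl3, a chemokine for myeloid and T cells, had the largest interaction of the genes named here. It read 6.74, 7.37 and 7.18 and then 11.91, 11.70 and 11.49 in NOD.LCMV. The NOD.Ln82-LCMV mice read 7.0, 8.38, 8.91 and 8.72 and then 9.46, 8.57, 8.80, 8.76 and 8.99, so the groups overlapped. The interaction was 3.94 ± 0.48, a 15.3-fold difference (95% interval 7.60 to 31.0, limma adjusted p = 6.05e-05). Without control replicate 1 it was 4.36. With Db alone, Ccl3 was already lower in NOD.LCMV by 1.16 log2 (limma adjusted p = 0.044). Xcl1, which attracts cross-presenting dendritic cells, gave 3.36 ± 0.40, or 3.64 without replicate 1. Ifng, interferon-γ, read 6.52 to 6.80 and then 6.65 to 7.04 in NOD.Ln82-LCMV, and its interaction was 2.30 ± 0.19. Ccl4 gave 1.89 ± 0.15. Tnf gave 2.22 ± 0.20.

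Inflammatory cytokines that myeloid and stromal cells also make were higher for 9 of 16 and lower for none. Il1b, interleukin-1β, read 6.55, 6.46 and 6.56 and then 10.18, 10.27 and 10.44 in NOD.LCMV. Its NOD.Ln82-LCMV values were 6.55, 6.43, 6.49 and 6.73 and then 7.56, 6.68, 6.92, 6.76 and 6.99, with replicate 1 highest after gp33 and the lowest gp33 mouse within the controls. The interaction was 3.34 ± 0.21 (limma adjusted p = 9.67e-08). Il1a gave 2.90 ± 0.20, and its 5 gp33-treated NOD.Ln82-LCMV mice (7.58 to 8.22) lay above the 4 controls (6.80 to 7.28). Il6 read 4.72 to 4.77 with Db and 4.65 to 4.84 with gp33 in NOD.Ln82-LCMV, near the bottom of the scale, and reached 6.85 to 7.64 in NOD.LCMV, with an interaction of 2.54 ± 0.17. Ptgs2, the gene of cyclooxygenase 2, gave 2.14 ± 0.16.

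Chemokines and GTPases that interferon-γ induces were higher in all 10 measured, with a median of 1.53 log2. Gbp5, a guanylate-binding protein gene, read 7.44, 7.17 and 7.28 and then 10.67, 10.53 and 10.38 in NOD.LCMV. Mice of NOD.Ln82-LCMV read 7.06, 7.61, 7.74 and 7.67 and then 8.02, 7.71, 7.78, 7.74 and 7.77, which overlap. The interaction was 2.95 ± 0.18 (limma adjusted p = 9.17e-08). Cxcl10 gave 2.84 ± 0.28, Cxcl9 2.73 ± 0.25 and Cxcl11 1.65 ± 0.14. These are the ligands of CXCR3, a receptor of effector T cells. Cxcl10 was also 0.74 log2 lower in NOD.LCMV with Db alone (limma adjusted p = 0.032). None of 19 genes induced mainly by type I interferon was called in limma, although 3 had an unadjusted p under 0.05. Their median interaction was 0.14 log2. Without NOD.Ln82-LCMV Db replicate 1 it was 0.27, and 1 was called. Class I antigen processing genes were higher for 3 of 13 and lower for none. They were the proteasome activator gene Psme2 (0.38 ± 0.07), the peptidase gene Erap1 (0.30 ± 0.08) and the peptide transporter gene Tap1 (0.40 ± 0.11). Erap1 lost its call in 4 of the 15 fits, with a lowest value of 0.27. Tap1 lost it without NOD.Ln82-LCMV Db replicate 4 or NOD.LCMV Db replicate 2 or 3, with values over the 15 fits between 0.27 and 0.50.

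Cell death genes gave a mixed picture. Bcl2l11, the gene of the killer protein Bim, read 10.21, 10.29 and 10.32 and then 11.74, 12.23 and 12.03 in NOD.LCMV. In NOD.Ln82-LCMV it read 10.23, 10.41, 10.32 and 10.44 and then 10.85, 10.71, 10.63, 10.73 and 11, again without overlap. The interaction was 1.29 ± 0.14 (limma adjusted p = 2.08e-05), and the NOD.Ln82-LCMV share was 0.25. The protective relative Bcl2l1 was higher too, by 0.71 ± 0.14. Of 14 BCL2 family genes, 4 were higher and none lower, with a median of −0.01 log2. Over the fits with 1 array left out, 2 to 4 were higher and up to 1 lower. Without NOD.Ln82-LCMV Db replicate 1, 3 were higher and none lower, and the median was 0.01. The other 2 of the 4 higher genes were the killer gene Pmaip1 (0.47 ± 0.13) and the protective Mcl1 (0.21 ± 0.06), and each call was lost in 11 of the 15 fits. In the list of death receptors, caspases and Gadd45 genes, 5 of 15 were higher and 2 lower, or 1 lower without NOD.Ln82-LCMV Db replicate 1. Gadd45b, a stress kinase activator, gave 2.66 ± 0.27, Gadd45g 1.28 ± 0.11, and the death receptor genes Tnfrsf10b and Fas 0.78 ± 0.07 and 0.55 ± 0.10. The TNF receptor gene Tnfrsf1b gave 0.90 ± 0.12. The lower ones were the executioner caspase gene Casp6 (−0.42 ± 0.08) and Tnfsf10 (−0.33 ± 0.10), the ligand TRAIL, whose call was lost in 11 of the 15 fits.

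Feedback inhibitors of receptor signalling were higher for 13 of 27 and lower for 1, or for 2 without NOD.Ln82-LCMV Db replicate 1. Spry1, whose product restrains MAP kinase signals, gave 2.40 ± 0.12 (limma adjusted p = 8.35e-09), with 8.08 to 8.30 and then 8.27 to 8.46 in NOD.Ln82-LCMV. Cish, a suppressor of cytokine signals, gave 1.80 ± 0.12, and Rgs16, which shortens G-protein signals, gave 1.74 ± 0.18. Socs3 gave 1.35 ± 0.12 on its brighter probe set and 0.07 on the other, which was not called. Ubash3a, a phosphatase gene of receptor signalling, was the lower one (−0.29 ± 0.08), and its call was lost in 9 of the 15 fits. It also belongs to the list of 16 type 1 diabetes risk genes, of which 5 were higher and 1 was lower. Il2ra, the high-affinity interleukin-2 receptor chain, read 10.19 to 10.74 and then 12.16 to 12.29 in NOD.LCMV. It read 10.63 to 11.07 and then 10.49 to 11.12 in NOD.Ln82-LCMV, with complete overlap, and its interaction was 1.60 ± 0.21. Bach2, a repressor of effector programs, gave 1.00 ± 0.23, or 0.80 without control replicate 1, which read 9.58 beside 8.72 to 8.83. The remaining higher ones were the lymphoid factor gene Ikzf3 (0.55 ± 0.09), the adaptor gene Sh2b3 (0.38 ± 0.07) and the cytokine gene Il2 (0.39 ± 0.08).

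Medians of both responses summarise the gene lists.

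**Figure D3:**
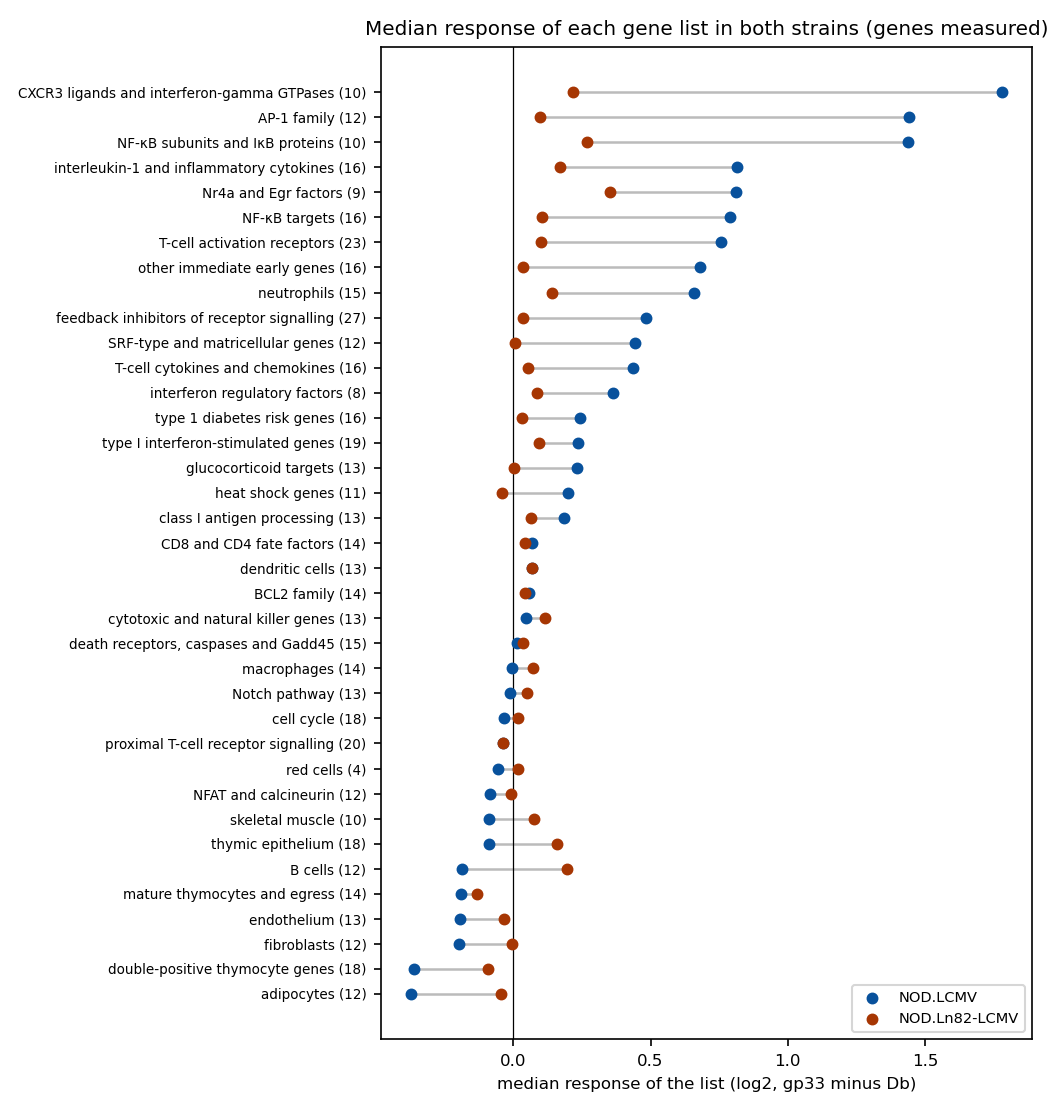
Median response to gp33 (log2, gp33 minus Db) of the measured members of each of 37 gene lists in NOD.LCMV (blue) and NOD.Ln82-LCMV (brown), ordered by the NOD.LCMV value, with the number measured in parentheses. The longest gaps belong to the interferon-γ, AP-1 and NF-κB lists, and the NOD.Ln82-LCMV medians all lie between −0.13 and 0.35.

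MicroRNA genes are transcribed as precursors from which short regulatory RNAs are cut. Of 297 measured, 21 were called and all of them were higher (7.07%). Over all genes 4.46% were higher and 4.26% lower, 8.73% in all. The median interaction over the 297 was 0.01 log2, and 17 to 24 were higher and up to 1 lower with any 1 array left out. In 20 of the 21 the shift in NOD.Ln82-LCMV had the sign opposite to that in NOD.LCMV. Among all 890 higher genes this held for 245 (27.5%), and the difference was not tested. Probe sets report RNA from the gene and not the mature miRNA, and none of these genes was eligible under the naming rule, so they were chosen after their values were seen. Without NOD.Ln82-LCMV Db replicate 1, 20 miRNA genes were higher and none lower. Mature forms of the miRNA genes with the largest interactions are given as RefSeq lists them (GRCm38.p6), 5′ to 3′, with the seed (bases 2 to 8), which pairs with targets, in capitals:
miR-155-5p: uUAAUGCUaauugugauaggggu
miR-18a-5p: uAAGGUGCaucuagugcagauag
miR-19a-3p: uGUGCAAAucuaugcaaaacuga
miR-19b-3p: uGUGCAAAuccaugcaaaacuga
miR-142a-3p: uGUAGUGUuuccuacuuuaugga
miR-181a-5p: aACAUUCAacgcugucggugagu
miR-15b-5p: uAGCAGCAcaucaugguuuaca
The forms 19a and 19b share 1 seed.

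Mir155, induced in activated lymphocytes, read 6.62, 6.69 and 6.77 and then 9.25, 8.85 and 8.86 in NOD.LCMV. The NOD.Ln82-LCMV mice read 6.52, 6.55, 6.53 and 6.64 and then 6.49, 6.61, 6.42, 6.34 and 6.93, with full overlap. The interaction was 2.30 ± 0.16 (limma adjusted p = 3.65e-07). Members of the Mir17 to Mir92 cluster, which restrains Bcl2l11 in lymphocytes, moved apart. Mir18 read 7.84, 7.59 and 7.27 and then 9.0, 9.08 and 8.80 in NOD.LCMV. Its NOD.Ln82-LCMV values were 7.82, 7.51, 7.29 and 7.41 and then 6.96, 7.07, 7.13, 6.67 and 6.53. All 5 gp33 mice lay below all 4 controls there, while in NOD.LCMV all 3 lay above. The interaction was 2.03 ± 0.22 (limma adjusted p = 2.25e-05), from 1.39 in NOD.LCMV and −0.64 in NOD.Ln82-LCMV. Mir19a gave 1.66 ± 0.17 and Mir19b-1 1.32 ± 0.15. The host transcript Mir17hg gave 0.61 ± 0.10 with a shift of 0.10 in NOD.Ln82-LCMV, and Mir17 itself gave 0.36 ± 0.11, which was not called (limma adjusted p = 0.0591).

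Mir142, specific to blood cells, read 7.74, 8.29 and 7.55 and then 9.45, 9.11 and 8.53 in NOD.LCMV. Mice of NOD.Ln82-LCMV read 8.20, 7.14, 6.73 and 6.77 and then 6.39, 6.15, 6.14, 6.22 and 6.27. The interaction was 2.15 ± 0.41 (limma adjusted p = 0.00329), and 1.82 without control replicate 1, the highest of its 4. Mir181a-1, whose product sets receptor sensitivity in thymocytes, gave 1.74 ± 0.38, with NOD.LCMV controls that spread from 7.53 to 8.65. Mir15b gave 1.38 ± 0.27, and its shift of −0.80 in NOD.Ln82-LCMV was larger than that of 0.59 in NOD.LCMV. Mir30e gave 0.70 ± 0.11. For Mir18, Mir142, Mir15b and Mir30e the peptide groups did not overlap in either strain and moved in opposite directions. Only 145 genes named in the text were checked for this. The negative shifts in NOD.Ln82-LCMV did not pass over all genes, with the adjusted p of Mir18 at 0.327 in limma.

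**Figure D4:**
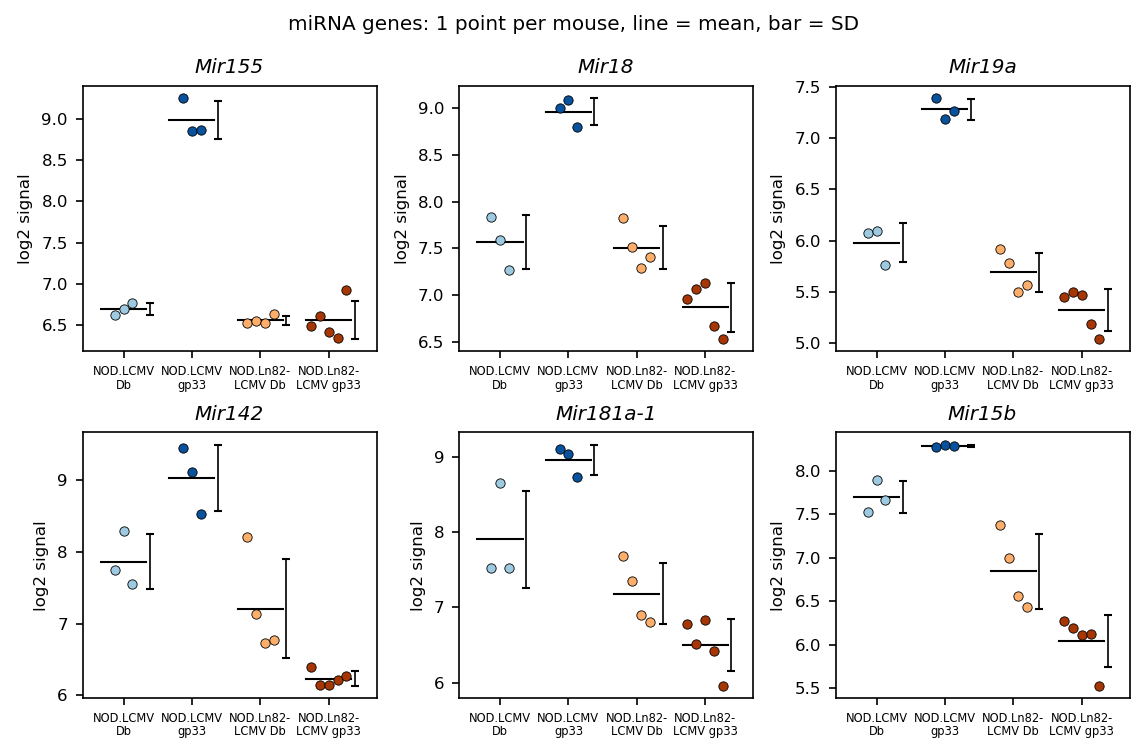
Log2 signal of 6 miRNA genes in each mouse by strain and peptide, with group means (lines) and SD (bars). After gp33 the NOD.LCMV mice lie above their controls, and for Mir18, Mir142 and Mir15b the NOD.Ln82-LCMV mice lie below theirs.

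The lower interactions were smaller in size. Card6, a caspase recruitment protein gene, had the largest of those named, −1.14 ± 0.23 (limma adjusted p = 0.0047). Its control replicate 1 in NOD.Ln82-LCMV read 7.98, near the 8.05 to 8.11 of the NOD.LCMV controls, and the other 3 read 7.12 to 7.39. Without it the interaction was −1.33. Cd7, a T-cell surface glycoprotein, read 10.14, 10.09 and 9.90 and then 9.26, 8.28 and 8.81 in NOD.LCMV. In NOD.Ln82-LCMV it read 10.34, 9.79, 9.62 and 9.96 and then 9.55, 9.93, 9.91, 10.02 and 9.48, with overlap. The interaction of −1.11 ± 0.28 ran from −1.35 to −0.86 over the 15 fits with 1 array left out, and its call was lost when the array was NOD.LCMV gp33 replicate 2 or either of the first 2 NOD.LCMV Db replicates. Itgae, the integrin chain CD103, gave −0.96 ± 0.24, or −1.13 without NOD.Ln82-LCMV Db replicate 1, and lost its call without NOD.LCMV gp33 replicate 2 (−0.78). Cpm, a membrane carboxypeptidase gene, gave −1.04 ± 0.23.

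Cyth4 encodes an exchange factor for ARF GTPases in blood cells. It read 10.20, 10.28 and 10.35 and then 9.41, 9.27 and 9.42 in NOD.LCMV. The NOD.Ln82-LCMV mice read 10.30, 10.04, 10.16 and 10.15 and then 10.12, 10.14, 10.05, 10.10 and 10.14. The interaction was −0.86 ± 0.08 (limma adjusted p = 6.09e-06). The secretory GTPase gene Rab37 gave −0.84 ± 0.13, the iron exporter gene Slc40a1 −0.86 ± 0.17, and Ripor2, an inhibitor of RhoA, −0.83 ± 0.15. Of 14 genes of mature thymocytes and egress, 5 were lower and none higher, and 6 were lower without NOD.Ln82-LCMV Db replicate 1. Besides Cd7 and Itgae these were S1pr1, the receptor for leaving the thymus (−0.65 ± 0.09), the integrin gene Itgb7 (−0.60 ± 0.12) and Foxo1, which drives S1pr1 and homing receptors (−0.46 ± 0.10). The range with any 1 array left out was 3 to 6. Of 18 double-positive thymocyte genes, 2 were lower and none higher, and 4 were lower without that array. Bcl11b, a T-lineage factor, gave −0.52 ± 0.13 and lost its call without NOD.LCMV Db replicate 2 (−0.38). The coreceptor gene Cd8a gave −0.40 ± 0.12, a call lost in 11 of the 15 fits.

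Of 13 cytotoxic and natural killer genes, the granzyme gene Gzmb (1.91 ± 0.19) and the granzyme inhibitor gene Serpinb9 (0.89 ± 0.16) were higher, and Klrd1, the receptor chain CD94 (−0.83 ± 0.16), was lower, and 2 were lower without NOD.Ln82-LCMV Db replicate 1. Of 13 glucocorticoid targets, 5 were higher and none lower, with the growth factor receptor inhibitor Errfi1 at 1.59 ± 0.20 and the metallothionein gene Mt2 at 1.15 ± 0.21. Mt2 read 10.52 to 10.81 with Db in NOD.LCMV and 10.95 to 11.73 in NOD.Ln82-LCMV, a strain difference of −0.73 (limma adjusted p = 0.0067), and 12.10 to 12.22 with gp33 in NOD.LCMV. Of 11 heat shock genes 2 were higher, the chaperone genes Hspa5 (0.38 ± 0.08) and Dnajb1 (0.41 ± 0.12), the second of which lost its call in 10 of the 15 fits, and 1 was higher without NOD.Ln82-LCMV Db replicate 1. Of 18 cell cycle genes, only Ccne1, the cyclin E1 gene, was lower (−0.27 ± 0.07), beside 4.26% of all genes. Its call was lost in 8 of the 15 fits, that without NOD.Ln82-LCMV Db replicate 1 among them.

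Thymic epithelium presents self peptides to thymocytes. Of 18 thymic epithelial genes, 4 were lower and none higher, with a median of −0.22 log2 (3 lower and 1 higher without NOD.Ln82-LCMV Db replicate 1), and the count of lower genes ranged from 1 to 7 with any 1 array left out. Psmb11, the thymoproteasome gene of cortical epithelium, read 8.56, 8.45 and 8.51 and then 7.93, 8.02 and 7.97 in NOD.LCMV. Its NOD.Ln82-LCMV values were 8.45, 8.66, 8.37 and 8.54 and then 8.69, 8.90, 8.98, 8.80 and 8.24, so the last mouse, replicate 5, lay below its controls. The interaction was −0.75 ± 0.18 (limma adjusted p = 0.0146). Foxn1, the master factor of thymic epithelium, gave −0.52 ± 0.13 and Cxcl12, a chemokine for thymocyte precursors, −0.51 ± 0.13. Both lost their calls without NOD.LCMV Db replicate 1 or 2 or gp33 replicate 2, Foxn1 also without gp33 replicate 3 and Cxcl12 also without gp33 replicate 1. Their smallest values were −0.43 and −0.45. Prss16, a cortical protease gene, gave −0.33 ± 0.10, a call lost in 12 of the 15 fits.

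The Notch pathway, through which epithelium commits precursors to the T lineage, had 3 lower genes and 1 higher of 13. Hey1, a Notch target, read 8.74, 8.82 and 8.56 and then 8.07, 7.86 and 8.11 in NOD.LCMV. Mice of NOD.Ln82-LCMV read 8.42, 8.81, 8.73 and 8.81 and then 8.93, 9.09, 9.20, 9.20 and 8.73. The interaction was −1.03 ± 0.16 (limma adjusted p = 0.000819), from −0.69 in NOD.LCMV and 0.34 in NOD.Ln82-LCMV. The ligand genes Dll4 and Jag2 gave −0.60 ± 0.12 and −0.48 ± 0.09. The ligand gene Dll1 was higher by 0.37 ± 0.10, a call lost in 10 of the 15 fits. Further genes with opposite signs were H3c15, a histone gene (1.12 ± 0.26), Slc46a2, a thymic stromal transporter gene (−0.80 ± 0.24), and Eya1, a factor of thymus organ formation (−0.52 ± 0.16). Slc46a2 and Eya1 lost their calls in 11 and 12 of the 15 fits, among them the one without NOD.Ln82-LCMV Db replicate 1.

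**Figure D5:**
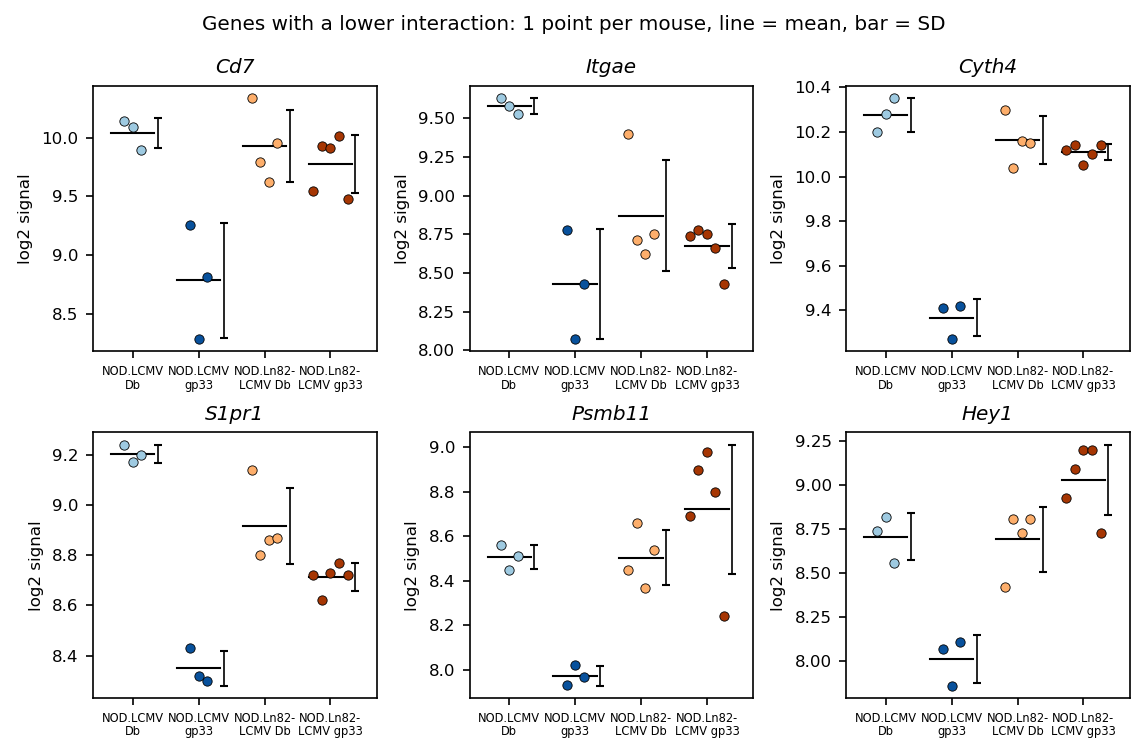
Log2 signal of 6 genes with a lower interaction in each mouse by strain and peptide, with group means (lines) and SD (bars). The 3 gp33-treated NOD.LCMV mice lie below their controls in each panel, and for Psmb11 and Hey1 most gp33-treated NOD.Ln82-LCMV mice lie above theirs.

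Markers of other cell types moved in both directions. Of 15 neutrophil genes, 7 were higher and none lower, and the list's mean was 7.11 to 7.32 with Db and 7.70 to 8.01 with gp33 in NOD.LCMV, against 6.88 to 7.12 and 7.06 to 7.37 in NOD.Ln82-LCMV. Retnlg gave 1.45 ± 0.11, the collagenase gene Mmp8 1.28 ± 0.12, the G-CSF receptor gene Csf3r 0.94 ± 0.10 and S100a8 0.62 ± 0.10. Retnlg and Mmp8 read 5.33 to 5.90 in all control mice, near the bottom of the scale. How much the neutrophil genes contributed to the interaction of the inflammatory genes was not tested. Of 13 dendritic cell genes, the chemokine genes Ccl22 (1.38 ± 0.15) and Ccl17 (1.37 ± 0.18) of mature cells were higher, and 3 were higher without NOD.Ln82-LCMV Db replicate 1. Those of the cross-presenting subset, Xcr1 (−0.59 ± 0.10) and Clec9a (−0.50 ± 0.13), were lower. Clec9a lost its call in 7 of the 15 fits.

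Tissue macrophage genes were lower for 2 of 14, the transcription factor gene Maf (−0.68 ± 0.07) and the receptor gene Mertk (−0.63 ± 0.14), which clears dead cells. Of 12 fibroblast genes, Pdgfrb (−0.54 ± 0.09) and Mmp2 (−0.46 ± 0.12) were lower, the second with a call lost in 7 of the 15 fits. Of 13 endothelial genes, Pecam1 (−0.50 ± 0.07) and Eng (−0.70 ± 0.16) were lower. Over all genes 4.26% were lower and 4.46% higher. The only B-cell gene of 12 to be called was the coactivator gene Pou2af1 (0.82 ± 0.17, higher). The B-cell list's median was −0.37 log2, or −0.24 without NOD.Ln82-LCMV Db replicate 1. Its mean signal ranged from 7.46 to 8.19 within the NOD.LCMV controls and from 7.72 to 8.48 within the NOD.Ln82-LCMV controls. None of 12 adipocyte, 4 red cell and 10 skeletal muscle genes was called in limma, and none of them had an unadjusted p under 0.05. The adipocyte list ranged from 8.73 to 10.21 within the NOD.LCMV controls and from 9.06 to 10.49 within the NOD.Ln82-LCMV controls. Its part in the other results was not tested.

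For some genes the strains already differed with the control peptide, a difference called for 10.3% of all genes. Pced1b read 9.47, 9.59 and 9.51 with Db in NOD.LCMV and 9.09, 8.70, 8.69 and 8.64 in NOD.Ln82-LCMV. After gp33 it read 9.02, 8.83 and 8.84 in NOD.LCMV and 8.53 to 8.71 in NOD.Ln82-LCMV. The interaction was −0.50 ± 0.12, or −0.60 without NOD.Ln82-LCMV Db replicate 1, and its call was lost without NOD.LCMV Db replicate 2 or gp33 replicate 2 (smallest value −0.45). Dennd1c, an exchange factor gene for RAB35, read 11.16 to 11.17 and then 10.55 to 10.66 in NOD.LCMV, against 10.43 to 10.79 and 10.39 to 10.55 in NOD.Ln82-LCMV, with an interaction of −0.50 ± 0.10. Apex1, a DNA repair endonuclease gene, ran the other way, at 9.04 to 9.17 and then 9.59 to 9.69 in NOD.LCMV and at 9.68 to 9.76 and then 9.72 to 9.97 in NOD.Ln82-LCMV. Its interaction was 0.41 ± 0.08. Dennd1c and Apex1 were chosen after their values were seen.

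Nfkbid lies on chromosome 7. There 99 of 1734 genes were called (5.71%), the lowest share of the 20 chromosomes, beside 8.73% over all genes. Chromosome 11 had the highest, 177 of 1563 (11.3%). These shares are over all measured genes, with no filter on signal, and their differences were not tested. Among the 25 measured genes on each side of Nfkbid, 4 of 50 were called, and none exceeded 1 log2. For the strain difference with Db, chromosome 7 had 171 of 1734 called (9.86%), rank 14 of 20, beside 10.3% over all genes.

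How much of the response remained in NOD.Ln82-LCMV was read from the 195 genes that rose at least 2-fold in NOD.LCMV. Their median rise was 1.48 log2 there and their median shift 0.17 in NOD.Ln82-LCMV, and 184 of 195 (94.4%) had the same sign. The median share of the log2 response was 0.11, with 0.02 and 0.24 as the 10th and 90th percentiles, and none exceeded 0.50. The 195 genes were chosen for their rise in NOD.LCMV, so the gap between strains is in part fixed by the choice. Taken over these genes, each of the 5 gp33-treated NOD.Ln82-LCMV mice lay above its control mean, by a median of 0.245, 0.13, 0.14, 0.15 and 0.22. Each gp33 mouse was set against the mean of all controls of its strain, but each control against the mean of the other controls. On that second scale the NOD.Ln82-LCMV controls lay at −0.15, 0.03, 0.06 and 0.09, with replicate 1 lowest. Without that array the median shift of the 195 genes in NOD.Ln82-LCMV was 0.13. The gp33-treated NOD.LCMV mice lay at 1.51, 1.56 and 1.41 above the mean of their controls. The 44 genes that rose at least 4-fold gave 2.51 and 0.30. The 10 genes that fell at least 2-fold in NOD.LCMV gave −1.19 and −0.22, all with the same sign. That second value ranged from −0.29 to −0.10 with any 1 NOD.Ln82-LCMV array left out, and −0.10 was the value without Db replicate 1, which stood 0.60 above its group.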

How the data were processed

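Values are log2 signals as deposited, made by the authors with RMA in Affymetrix Expression Console 1.1, per the submitters' processing notes, and no further normalization was applied. Of 35556 probe sets, 21789 carried 1 gene symbol, and the probe set with the highest mean over the 15 arrays stood for each of 19938 genes. The interaction and the 4 simple contrasts were fitted in limma 3.58.1 (R 4.3.3) with 1 mean per group (11 residual and 14.9 total degrees of freedom), and p-values were adjusted over all genes by Benjamini-Hochberg with a threshold of 0.05. The number of arrays limits the precision. Genes named are Nfkbid, those with the largest interactions (15 in each direction, leaving out predicted, clone-named and small RNA genes and receptor families), up to 4 members of each of 37 gene lists by adjusted p, and up to 5 each with opposite signs or a large strain difference with Db. Other genes were named after their values were seen. Members and lists were chosen with earlier results of these data known. The fit was tested on simulated data of 19938 genes: it called 83% of 100 genes changed 1.5-fold and 97% of 100 changed 2-fold, with 9 calls among unchanged genes. The simulated noise was normal and independent between genes and arrays, with no strain difference and no array that stood apart. These rates therefore need not hold for the real arrays. Alternatives changed scaling, filters, the variance model, the probe set rule, a replicate block and the arrays included. Counts for lists, forms and miRNA genes without NOD.Ln82-LCMV Db replicate 1 were chosen after seeing the data. The array annotation's genome build is not given in the sources used here.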

Additional observations from a re-analysis of the deposited data

Results flagged for a closer look

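Of 292 groups of values tested for a single distant mouse, 14 were flagged. Chance gives about 1 in 20, so the number flagged is about that given by chance. In 8 of the 14 the mouse was NOD.Ln82-LCMV Db replicate 1. That mouse was low for Tagap (8.69, others 9.59 to 9.66), Tnfrsf9 (8.30, others 9.20 to 9.37) and Xcl1 (7.19, others 8.31 to 8.34). It was high for Bach2 (9.58, others 8.72 to 8.83), Itgae (9.40, others 8.62 to 8.75), Ripor2 (10.75, others 10.14 to 10.23), Pced1b (9.09, others 8.64 to 8.70) and Id2 (11.56, others 11.42 to 11.44).

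In 4 the mouse was NOD.Ln82-LCMV gp33 replicate 5, for Gadd45g (7.72, others 7.43 to 7.50), Mertk (8.56, others 8.86 to 8.96), Mir15b (5.53, others 6.11 to 6.28) and Vcl (9.24, others 9.25). The Vcl values differ only in the last digit, so that flag does not mark a distant mouse. The other flagged values were Gbp5 in NOD.Ln82-LCMV gp33 replicate 1 (8.02, others 7.71 to 7.78) and Nfatc2 in replicate 3 (8.66, others 8.79 to 8.84).

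The response differed between the strains for 1740 genes by the interaction test. For 4 miRNA genes the peptide groups moved in opposite directions without overlap in either strain, with interactions of 2.03 for Mir18, 2.15 for Mir142, 1.38 for Mir15b and 0.70 for Mir30e log2. Only the 145 genes followed were checked for this, and the miRNA genes among them were chosen after their values were seen. The share over all genes was not counted, so the pattern is not shown to be particular to miRNA genes.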

How the results depend on the processing

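The interaction gave 1740 calls, and between 1515 and 1860 under the other scalings, filters, probe set rules and variance trend (every call shared with one of those scored gene by gene, the replicate block or a fit with 1 array left out kept its sign). Array weights gave 3175 (1903 lower), and a limit of at least 1.5-fold gave 456 (382 higher, 74 lower). Centring arrays on their median left 523 lower calls. The replicate block gave 1657 calls, of which 1440 were shared. No label says that replicate numbers pair the mice. Deviations of same-numbered mice correlated at 0.117, 0.008, −0.05 and −0.226. So few correlations of deviations from group means cannot exclude weak sharing.

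For the response in NOD.LCMV the 1.5-fold limit gave 591 calls. In NOD.Ln82-LCMV, the variance trend and array weights each gave 4, and unlogged values, the replicate block, every probe set on its own and the 1.5-fold limit each gave 0 in limma (1190 genes at an unadjusted p under 0.05 as deposited). The strain difference with Db was called for 4350 with array weights, 3928 probe sets on their own and 110 at 1.5-fold. After gp33 it was 8240 probe sets and 703 at 1.5-fold. The replicate block gave 293 with Db and 3128 after gp33. Those counts set NOD.LCMV against the level of NOD.Ln82-LCMV replicate number 1, whose Db array stood apart. They belong to another contrast and do not show how the strain difference depends on processing. The median NOD.Ln82-LCMV shift of genes that rose in NOD.LCMV was 0.0465 with no fold limit and 0.30 at 4-fold, and that of genes that fell was −0.0475 with no fold limit.

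With any 1 array left out, the interaction ranged from 1207 to 1954 calls (higher 735 to 938, lower 472 to 1016), the NOD.LCMV response from 3000 to 4271, the NOD.Ln82-LCMV response from 0 to 2, and the strain differences from 1049 to 2721 with Db and 4228 to 5641 with gp33. The median shifts ranged from 0.13 to 0.19 and from −0.29 to −0.10. Of 145 genes followed, 143 were called, 117 of these kept their call in every such fit, and none of the 145 changed sign under any alternative. The causes were not tested. Each group holds 3 to 5 mice, so small differences could be missed.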
